A study of Homo sapiens with 8 samples.

Results

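The arrays described here compared TOV-21G cells in which CSE1L had been silenced with SK-OV-3 cells silenced in the same way. They were chosen by their labels and made up 4 of the 8 arrays of the study, 2 for each silenced line. TOV-21G is an established ovarian clear cell carcinoma line, and SK-OV-3 is an established ovarian adenocarcinoma line that carries extra copies of the ERBB2 locus. The silenced groups were TOV-21G and SK-OV-3 transfected with an siRNA against CSE1L, and the control groups were TOV-21G and SK-OV-3 transfected with a scrambled siRNA. RNA of all 4 groups was taken 72 h after transfection and hybridised to Illumina bead arrays, and each group held 2 arrays numbered as experiment 1 and experiment 2. A single line stands for each tumour type, so a difference between lines cannot be told apart from a difference between tumour types.

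CSE1L carries importin alpha from the nucleus back to the cytoplasm, where importin alpha picks up its next cargo, and it is often abundant in dividing and cancer cells. Cell lines of different origin keep distinct programmes of lineage factors, keratins and matrix genes in culture. Those programmes are part of what an array sees when 2 lines are compared. The same treatment may then leave such a line difference as it was, or make it wider or narrower. Here the question was which genes separated the silenced lines, and for which of them the gap between silenced lines was not the gap between control lines.

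Values are log2 intensities after background correction and quantile normalization, and a line difference is the mean of the TOV-21G arrays minus the mean of the SK-OV-3 arrays. The silenced line difference used the 4 silenced arrays, and the control line difference used the 4 control arrays, so they had no array in common. The change of the line difference is the silenced difference minus the control difference. A gene was called when its p from limma, adjusted over all 9377 genes and probes tested by the Benjamini-Hochberg method, was under 0.05. Of 24531 probes on the array, 37.5% to 40% were detected per array, and arrays of 1 group correlated across genes at 0.972 to 0.982. Silenced TOV-21G and silenced SK-OV-3 arrays correlated at 0.802 to 0.816.

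CSE1L was lower in silenced TOV-21G than in silenced SK-OV-3, but the difference did not pass. Its log2 intensity was 8.80 and 7.72 on the silenced TOV-21G arrays, against 10.51 and 8.99 on the silenced SK-OV-3 arrays. On the control arrays it was 13.02 and 11.65 in TOV-21G, against 12.04 and 12.56 in SK-OV-3. The silenced groups did not overlap and the control groups did, and every silenced array lay below every control array. The silenced line difference of CSE1L was -1.49 (SE 0.63, limma adjusted p = 0.0961), and the control difference was 0.04. Without experiment 1 of silenced SK-OV-3 the silenced difference was -0.72, and without experiment 2 it was -2.25 and passed (limma adjusted p = 0.041). With a trended and robust spread CSE1L also passed (limma adjusted p = 0.0481). The part of the remaining CSE1L in the results that follow was not tested. RASSF1, a Ras association domain protein often lost in tumours, had 11.72 and 11.72 in silenced TOV-21G, against 11.21 and 11.84 in silenced SK-OV-3, and these groups overlapped.

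The labelled cell types were set against marker lists. The keratins KRT7, KRT8 and KRT18, the junction protein gene JUP, the Müllerian lineage factor PAX8 and mesothelin (MSLN) were detected on all 8 arrays. EPCAM, MUC16 and CLDN4, other common markers of ovarian carcinoma, were detected on none. Of 14 keratins with a probe 5 were detected on all 8 arrays and 4 on none, and of 32 epithelial junction genes 14 and 11. Of 24 ovarian carcinoma antigens and lineage factors with a probe, 4 were detected on all 8 arrays and 14 on none. Of 20 clear cell carcinoma genes with a probe, 5 were detected on all 8 arrays (SPP1, SOD2, STAT3, ADM and RBPJ), 9 on some and 6 on none, with ANXA4 and LEFTY1 among the undetected. Of the 13 tested, 6 were called higher and 1 lower in silenced TOV-21G (53.8%, beside 39.8% of all genes). The control counts were also 6 and 1, beside 33.8% of all genes.

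Markers of other cell types were mostly undetected. No marker of lymphocytes (8 with a probe), endothelial cells (7) or neurons (4) was detected on any array. Of 9 fibroblast markers 6 were undetected on every array, COL1A1 was detected on all of them and DCN on 4. The 3 tested (COL1A1, DCN and PDGFRA) were all higher in TOV-21G, with 2 called after silencing and 3 between control lines. The silenced calls were of COL1A1, with a difference of 1.77, and of DCN. These calls were lost in 6 alternative settings for COL1A1 and in 4 for DCN. Of 7 hepatocyte markers 5 were detected on no array, of 7 macrophage markers 6 and of 4 melanocyte markers 3. The hepatocyte marker FGA, a fibrinogen chain, was at 8.80 and 8.96 in silenced TOV-21G, against 7.71 and 7.10 in silenced SK-OV-3, and was called higher (limma adjusted p = 0.00545). SERPINA1, a protease inhibitor made by hepatocytes, and PMEL, a melanosome protein, were detected on the 4 TOV-21G arrays alone, at least 2.14-fold and 1.61-fold higher after silencing. The call of SERPINA1 was lost when experiment 1 of silenced TOV-21G or a single SK-OV-3 array of either treatment was left out. The macrophage marker CD14 was detected on 5 arrays, at 6.99 and 6.59 in silenced TOV-21G, against 6.96 and 6.80 in silenced SK-OV-3, and these groups overlapped. The part of such markers in the line difference was not tested.

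Between the silenced lines 3732 of 9377 genes and probes were called, 39.8% of those tested. Of these, 1817 were higher (19.4%) and 1915 were lower (20.4%) in silenced TOV-21G. Of the called genes 2845 differed at least 2-fold, 1130 at least 4-fold and 281 at least 16-fold. The 2 silenced groups did not overlap for 6677 genes (71.2%), called or not. Between the control lines 3166 were called (33.8%), of which 1601 were higher (17.1%) and 1565 lower (16.7%) in TOV-21G, and the groups did not overlap for 6427 (68.5%). The median difference over all genes was -0.04 between silenced lines and -0.07 between control lines.

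Most of the separation of the silenced lines was also present between the control lines. Of the 3732 genes called between silenced lines, 66.9% were called with the same sign between control lines, and of the 3166 control calls 78.8% were called with the same sign after silencing. Across genes, which are not independent replicates, the silenced and control differences correlated at a Pearson r of 0.91 and a Spearman correlation of 0.83. Another 1229 genes were called only between silenced lines, and 1107 of them had the same sign between control lines. For 663 genes called only between control lines, 603 had the same sign after silencing. A call in only 1 of the comparisons does not show that the differences themselves differed, which the change of the line difference tested.

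**Figure D1:**
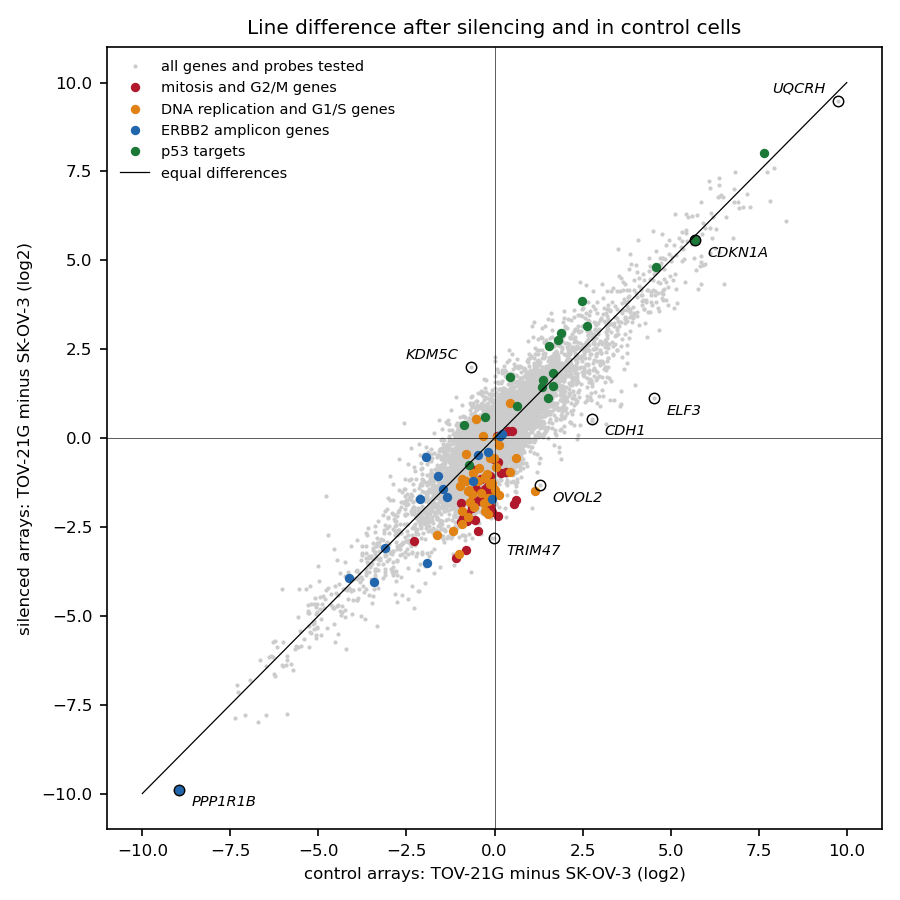
Each point is a gene or unnamed probe. The vertical axis is the TOV-21G minus SK-OV-3 difference on the silenced arrays and the horizontal axis is the same difference on the control arrays, both in log2 units, with the line marking equal differences. Of the ERBB2 amplicon genes 10 lie below the line and 6 above it, of the p53 targets 4 below and 14 above, and all 41 mitosis genes and 39 of the 43 replication genes lie below it.

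The 10 genes highest in silenced TOV-21G had roles in respiration, secreted signalling, lipid handling and development. UQCRH, a subunit of respiratory complex III, was at 14.83 and 14.63 in silenced TOV-21G, against 5.38 and 5.09 in silenced SK-OV-3. It was undetected on both silenced SK-OV-3 arrays, so it was at least 274-fold higher in silenced TOV-21G (limma adjusted p = 8.9e-07). The control lines were set apart in the same way, with 14.70 and 14.70 in TOV-21G against 5.04 and 4.85 in SK-OV-3. The genome holds a near-identical copy of UQCRH, so the probe may read both.

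GDF15, a secreted stress cytokine of the TGF-beta family, was at 14.27 and 14.54 in silenced TOV-21G, against 6.23 and 6.55 in silenced SK-OV-3, and was at least 219-fold higher (limma adjusted p = 1.48e-06). APOE, a lipid carrier of lipoproteins, was at 13.82 and 14.16 in silenced TOV-21G, against 6.38 and 6.44 in silenced SK-OV-3, at least 164-fold higher. PLIN2, which coats lipid droplets, was at 11.22 and 12.32 in silenced TOV-21G, against 5.04 and 4.79 in silenced SK-OV-3, at least 35.2-fold higher. None of these was detected on a silenced SK-OV-3 array. That the silenced groups did not overlap was a condition of their selection.

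CCL20, a chemokine that draws CCR6-bearing lymphocytes, was at least 70.9-fold higher in silenced TOV-21G, with 13.23 and 12.33 against 5.07 and 5.50 in silenced SK-OV-3. KCNJ2, an inward rectifier potassium channel, was at least 65.0-fold higher, and RAC2, a small GTPase best known from blood cells, at least 43.7-fold higher. HOXC6, a homeobox factor of the HOXC cluster, was at least 54.1-fold higher, while its other detected probe gave a difference of 1.60. CRYAB, a small heat shock protein, and IGFBP4, a binding protein of insulin-like growth factors, had signal in both lines. IGFBP4 was at 14.29 and 13.56 in silenced TOV-21G, against 6.69 and 7.10 in silenced SK-OV-3, a log2 difference of 7.04 (SE 0.37, limma adjusted p = 7.22e-06). CRYAB differed by 7.22 (SE 0.62, limma adjusted p = 7.46e-05) and was detected on 1 of the 2 silenced SK-OV-3 arrays.

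The 10 genes lowest in silenced TOV-21G were undetected on both of its arrays. PPP1R1B, also known as DARPP-32 and lying beside ERBB2, was at 5.09 and 5.02 in silenced TOV-21G, against 14.77 and 15.12 in silenced SK-OV-3, at least 350-fold lower (limma adjusted p = 1.27e-06). Its other probes gave log2 differences of -3.34 and -1.68, so the size of the gap depended on the probe while the direction did not. FOLR1, the folate receptor used as an ovarian carcinoma antigen, was at 4.85 and 5.33 in silenced TOV-21G, against 13.25 and 12.49 in silenced SK-OV-3, at least 82.9-fold lower. The other detected FOLR1 probes gave log2 differences of -6.55 and -2.60, so here too the size depended on the probe. PTGIS, the prostacyclin synthase, was at 4.82 and 4.92 in silenced TOV-21G, against 13.10 and 12.61 in silenced SK-OV-3, at least 81.9-fold lower.

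ZIC2, a zinc finger factor of neural development, was at 5.22 and 6.27 in silenced TOV-21G, against 13.51 and 13.53 in silenced SK-OV-3, at least 130-fold lower. It was detected in control TOV-21G, at 7.30 and 7.0025, against 13.14 and 12.94 in control SK-OV-3. Of these 10 genes ZIC2 was the one detected in control TOV-21G, and the change of its line difference did not pass (limma adjusted p = 0.234). The remaining genes were APCDD1L (at least 85.7-fold lower), AMTN (68.5-fold), TENM3 (64.4-fold), DPYSL3 (47.5-fold), HOXB2 (39.7-fold) and the glutathione transferase GSTT1 (33.2-fold). All 20 of the highest and lowest genes were called with the same sign in every alternative processing in which they were tested. With the authors' own normalization the differences were smaller, for example 7.04 for UQCRH and -7.46 for PPP1R1B on the log2 scale. These fall short of the bounds given above, which therefore hold only for the background correction used here.

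**Figure D2:**
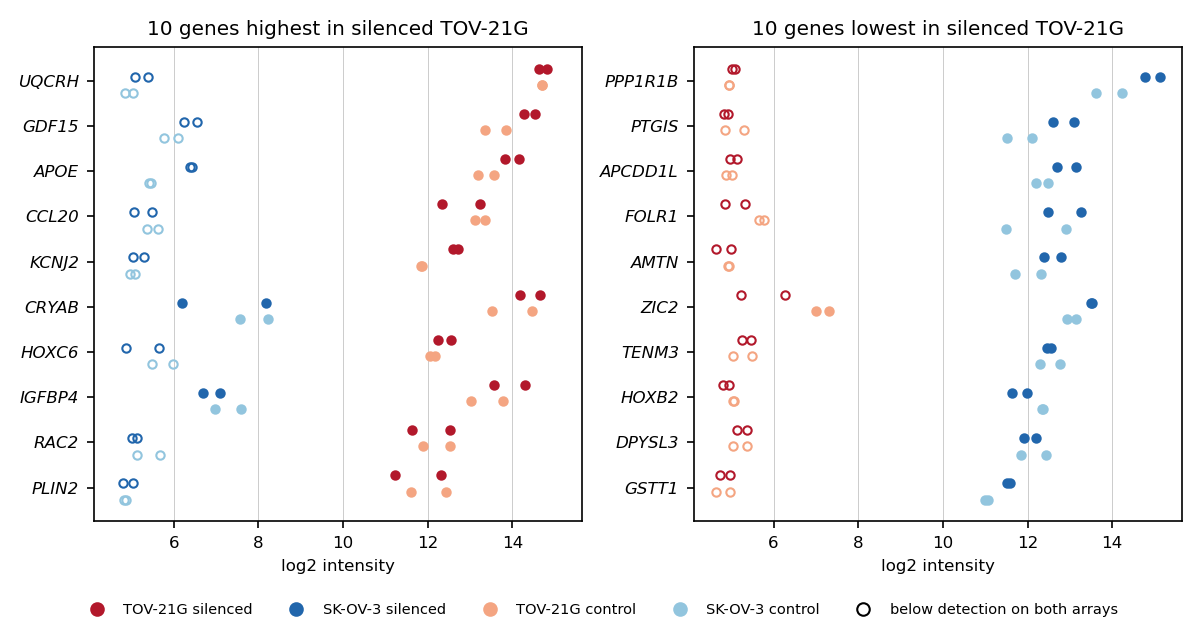
Log2 intensity on every array of the 10 genes highest and the 10 genes lowest in silenced TOV-21G, 1 point per array, with silenced groups above control groups within each gene. Open points mark a group undetected on both arrays. The silenced and control arrays of a line lie close together, and the lines lie apart.

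Genes of the ERBB2 amplicon, the stretch of chromosome 17 that is present in extra copies in SK-OV-3, were low in silenced TOV-21G as they were in control TOV-21G. Of 16 tested, 10 were called lower and 0 higher after silencing (62.5%, beside 39.8% of all genes). The control count was 10 and 0, beside 33.8% of all genes. The median difference was -1.54 in each comparison. ERBB2, the receptor tyrosine kinase, was at 11.36 and 11.70 in silenced TOV-21G, against 15.53 and 15.65 in silenced SK-OV-3. The difference was -4.06 (SE 0.22, limma adjusted p = 7.89e-06), and between control lines it was -3.42. PGAP3, an enzyme of GPI anchors, differed by -3.94 after silencing and -4.14 between controls, and STARD3, a cholesterol transporter, by -3.08 and -3.10. PGAP3 and STARD3 thus differed by nearly the same amount with and without silencing. CDK12, a transcriptional kinase, did not, with -0.52 between silenced lines, which was not called, and -1.95 between control lines, and the change did not pass (limma adjusted p = 0.227).

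Targets of the transcription factor p53, which TOV-21G retains in wild-type form and SK-OV-3 lacks, were high in silenced TOV-21G. Of 18 tested, 15 were called higher and 0 lower between silenced lines (83.3%, beside 39.8% of all genes). Between control lines 13 were called higher and 1 lower (77.8%, beside 33.8% of all genes). The 1 lower control call, of SFN, was lost when any 1 of 5 arrays was left out. The median difference was 1.78 after silencing and 1.60 between controls. CDKN1A, the cyclin-dependent kinase inhibitor p21, was at 15.07 and 14.79 in silenced TOV-21G, against 8.72 and 10.01 in silenced SK-OV-3, a difference of 5.57 (SE 0.51, limma adjusted p = 0.000102). A further CDKN1A probe gave 5.65 between silenced lines and 3.37 between control lines, where the main probe gave 5.68, so the probes disagree on whether its gap changed. TP53I3, a quinone oxidoreductase, was at 12.57 and 12.53 in silenced TOV-21G, against 8.78 and 8.63 in silenced SK-OV-3, and the difference was 3.84, beside 2.49 between controls. A further TP53I3 probe gave 1.56 and 1.30, so the wider gap after silencing rests on 1 probe. SPATA18, a mitochondrial quality factor, was undetected in silenced SK-OV-3 and at least 12.4-fold higher in silenced TOV-21G.

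Cell division genes set the silenced lines apart, and few of them were called between the control lines. Of 41 mitosis and G2/M genes tested, 34 were called lower and 0 higher in silenced TOV-21G (82.9%, beside 39.8% of all genes). Between control lines 3 were called lower and 0 higher (7.32%, beside 33.8% of all genes). The median difference was -1.75 after silencing and -0.21 between controls. The difference lay below 0 for 38 of the 41 after silencing, where 51.8% of all genes did, and for 32 between controls, where 54% did. Of 43 DNA replication and G1/S genes, 33 were called lower and 1 higher in silenced TOV-21G (79.1%). Between control lines 4 were called lower and 1 higher (11.6%), and the medians were -1.35 after silencing and -0.30 between controls. Here 39 of the 43 lay below 0 after silencing and 34 between controls. When single arrays were left out, the control counts of lower genes moved both ways, and the highest of these came without a silenced TOV-21G array. Each such fit redid the normalization and the estimate of the spread that all arrays share, and the cause was not tested. In the other settings the control counts of lower genes reached 8 for mitosis and 10 for replication. The silenced counts stayed between 26 and 36 for mitosis and between 23 and 33 for replication when each array was left out.

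The gap came with low values on both silenced TOV-21G arrays. The median log2 intensity of the mitosis genes was 10.05 and 9.40 on the silenced TOV-21G arrays and 11.47 and 11.63 on the silenced SK-OV-3 arrays. On the control arrays it was 11.37 and 11.01 in TOV-21G and 11.63 and 11.88 in SK-OV-3. For the replication genes it was 9.38 and 9.16 on the silenced TOV-21G arrays and 10.72 and 10.70 on the silenced SK-OV-3 arrays, and on the control arrays it was 10.54 and 10.55 in TOV-21G and 10.86 and 10.37 in SK-OV-3. The silenced TOV-21G arrays were the lowest for both lists. In bulk RNA, fewer dividing cells and less of these transcripts per cell cannot be told apart.

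**Figure D3:**
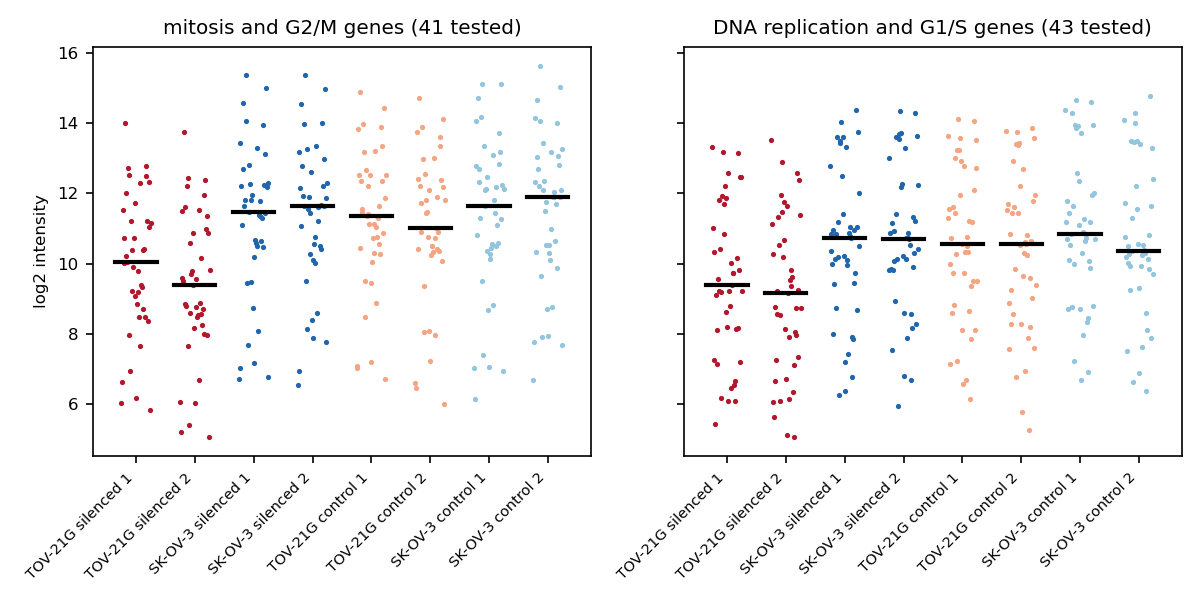
Log2 intensity of the tested mitosis and G2/M genes and DNA replication and G1/S genes on each of the 8 arrays, 1 point per gene, with the array's median as a bar. The medians of both silenced TOV-21G arrays lie below those of the other 6 arrays in each panel.

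No single gene passed the test of the change of the line difference. At an adjusted p under 0.05 limma called 0 of 9377 (0%), and the smallest adjusted p was 0.165. At an unadjusted p under 0.05 there were 948 genes (10.1%). Of these, 401 lay toward TOV-21G (4.28%) and 547 toward SK-OV-3 (5.83%). In the mitosis list 30 of 41 genes were at an unadjusted p under 0.05 toward SK-OV-3 and 0 toward TOV-21G. The change was below 0 for all 41 tested, where 49.3% of all genes were below 0, and its median was -1.35 beside 0.01 over all genes. In the replication list 25 of 43 were at an unadjusted p under 0.05 toward SK-OV-3 and 1 toward TOV-21G, and the median change was -1.10. These genes share arrays and vary together, so the counts are a description of 8 arrays and not a test of the lists.

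MKI67, the nuclear antigen Ki-67 of cycling cells, was at 8.72 and 8.24 in silenced TOV-21G, against 10.64 and 10.49 in silenced SK-OV-3. The silenced difference was -2.09 (SE 0.23, limma adjusted p = 0.000274), and between control lines it was -0.08. PLK1, a kinase of mitotic entry and spindle assembly, was at 8.49 and 8.01 in silenced TOV-21G, against 10.47 and 10.42 in silenced SK-OV-3. The silenced difference of PLK1 was -2.20 (limma adjusted p = 0.000668), beside 0.10 between control lines. In both genes the silenced TOV-21G arrays stood alone, with the other 3 groups at 9.86 or above.

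CENPA, the histone variant of centromeres, was at 9.21 and 8.59 in silenced TOV-21G, against 11.47 and 11.55 in silenced SK-OV-3, a difference of -2.61 beside -0.46 between controls. SPC24, part of the NDC80 complex of the kinetochore, differed by -3.37 beside -1.10, and TOP2A, a topoisomerase needed for chromosome segregation, by -3.15 beside -0.81. Among replication genes MCM4, part of the replicative helicase, differed by -2.60 beside -1.17, and the histone chaperone subunit CHAF1A by -2.72 beside -1.62. Both were also called between control lines, while a further MCM4 probe gave -2.01 beside -0.16. CCNE1, the cyclin of the G1/S transition, is named after its values were seen because it was the replication list member called higher in silenced TOV-21G, at 11.02 and 11.13 against 10.35 and 9.81 in silenced SK-OV-3, and its difference was 0.996 (limma adjusted p = 0.0173). No replication gene was called higher without experiment 2 of silenced TOV-21G or of silenced SK-OV-3.

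The promoters of these genes are shown because members of the lists moved together on the arrays. Cell cycle genes of G2 and M often carry a cell cycle homology region, whose letters are TTTGAA, and genes of G1/S often carry E2F sites. RefSeq promoter windows of 300 bases on GRCh38.p14, from 250 bases before to 50 bases after the start, were found for 32 of the 41 mitosis genes and 39 of the 43 replication genes. TTTGAA, on either strand, was in 24 of the 32 mitosis windows (75%) and in 2 of the 39 replication windows (5.13%), beside 15.4% of all 27305 windows. TTTCCCGC or TTTGGCGC, on either strand, was in 18 of the 39 replication windows (46.2%) and in 2 of the 32 mitosis windows (6.25%), beside 2.31% of all. CCAAT, the core of NF-Y sites, was in 84.4% of mitosis, 59% of replication and 35.7% of all windows. None of these strings contains another. A match is a description of letters and not of a factor bound there.

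The 150 bases before the start are printed 5′ to 3′ on the gene's strand for the members of each list with the smallest p for the change of the line difference among those with a match. Capitals mark TTTGAA in MKI67 (minus strand, chr10:128126424-128126573), PLK1 (plus strand, chr16:23678739-23678888) and CENPA (plus strand, chr2:26785906-26786055). In E2F2 (minus strand, chr1:23531234-23531383) capitals mark TTTGGCGC, and in CDT1 (plus strand, chr16:88803639-88803788) they mark the reverse complement of TTTCCCGC.
MKI67: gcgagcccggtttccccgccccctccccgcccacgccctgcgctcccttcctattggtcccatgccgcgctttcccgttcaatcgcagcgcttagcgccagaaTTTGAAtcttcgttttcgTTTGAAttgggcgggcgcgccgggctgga
PLK1: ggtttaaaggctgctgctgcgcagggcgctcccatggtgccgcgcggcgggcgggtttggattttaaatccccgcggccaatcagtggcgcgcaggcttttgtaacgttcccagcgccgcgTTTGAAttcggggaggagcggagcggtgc
CENPA: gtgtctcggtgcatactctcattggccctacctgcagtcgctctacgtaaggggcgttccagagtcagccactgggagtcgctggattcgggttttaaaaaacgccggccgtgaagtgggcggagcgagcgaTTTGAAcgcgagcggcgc
E2F2: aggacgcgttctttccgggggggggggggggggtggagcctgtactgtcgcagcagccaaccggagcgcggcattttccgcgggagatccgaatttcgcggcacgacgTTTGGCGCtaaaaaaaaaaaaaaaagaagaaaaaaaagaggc
CDT1: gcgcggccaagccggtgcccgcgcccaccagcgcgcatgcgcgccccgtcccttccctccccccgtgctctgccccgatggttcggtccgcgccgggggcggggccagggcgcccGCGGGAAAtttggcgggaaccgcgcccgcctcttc
The match nearest the start began 29 bases before it in MKI67 and in PLK1 and 18 bases before it in CENPA. E2F2, an activating E2F factor, had -1.50 between silenced lines and 1.14 between control lines. CDT1, which loads the replicative helicase onto origins and is named here for its promoter, was at 9.10 and 8.77 in silenced TOV-21G, against 10.96 and 11.16 in silenced SK-OV-3, a difference of -2.13 (limma adjusted p = 0.00141) beside -0.18 between controls.

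E2F2 was among 8 genes called in both comparisons with opposite signs. E2F2 was at 9.56 and 9.21 in silenced TOV-21G, against 10.85 and 10.92 in silenced SK-OV-3 (limma adjusted p = 0.00675). On the control arrays it was at 11.62 and 11.45 in TOV-21G, against 10.86 and 9.93 in SK-OV-3 (limma adjusted p = 0.0255). The line with more E2F2 was therefore SK-OV-3 after silencing and TOV-21G without it. OVOL2, a zinc finger repressor that holds cells in the epithelial state, was at 8.84 and 8.87 in silenced TOV-21G, against 10.44 and 9.94 in silenced SK-OV-3. On the control arrays OVOL2 was at 10.73 and 10.995 in TOV-21G, against 9.58 and 9.57 in SK-OV-3. Its silenced difference was -1.33 (limma adjusted p = 0.00303) and its control difference was 1.29 (limma adjusted p = 0.0041). The change was -2.62 (SE 0.33) and did not pass (limma adjusted p = 0.165).

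CA12, a membrane carbonic anhydrase, had a silenced difference of -1.43 (limma adjusted p = 0.0079) and a control difference of 1.09 (limma adjusted p = 0.0288). TENT5B, a terminal nucleotidyltransferase, had -0.95 (limma adjusted p = 0.0204) and 1.21. The silenced call of CA12 was lost when experiment 1 of silenced SK-OV-3 was left out (limma adjusted p = 0.0546). The silenced call of TENT5B was lost without that array (limma adjusted p = 0.126), without experiment 2 of silenced TOV-21G (limma adjusted p = 0.0901) and under median scaling (limma adjusted p = 0.0597). OVOL2, E2F2, CA12 and TENT5B were chosen for their calls with opposite signs, so the opposite order of their groups adds no further evidence. For none of them did the change of the line difference pass. Its limma adjusted p was 0.165 for OVOL2, E2F2 and TENT5B and 0.17 for CA12.

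The genes with the smallest p for a change toward SK-OV-3 were led by TRIM47, a RING finger protein. TRIM47 was at 7.67 and 7.46 in silenced TOV-21G, against 10.51 and 10.26 in silenced SK-OV-3, and the difference was -2.82 (SE 0.22, limma adjusted p = 4.26e-05). The control arrays held 9.40 and 9.16 in TOV-21G, against 9.40 and 9.21 in SK-OV-3, a difference of -0.03. The control groups overlapped, the silenced TOV-21G arrays lay below them and the silenced SK-OV-3 arrays above them. The change was -2.79 (SE 0.31, limma adjusted p = 0.165). TRIM47 was called for the change without background correction, with the authors' own normalization, with detection required on all 8 arrays and with a trended and robust spread (limma adjusted p = 0.0372, 0.0152, 0.0376 and 0.0353).

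RBL1, the pocket protein p107 that binds E2F factors, was at 6.29 and 6.10 in silenced TOV-21G and undetected, against 9.13 and 8.90 in silenced SK-OV-3, at least 5.71-fold lower (limma adjusted p = 4.31e-05). Between control lines RBL1 differed by -0.65. UCN2, a peptide of the corticotropin-releasing family, was undetected in silenced TOV-21G at 5.33 and 5.01, against 8.92 and 8.99 in silenced SK-OV-3, at least 5.49-fold lower. In control TOV-21G it was at 8.84 and 7.88, against 8.93 and 9.13 in control SK-OV-3. Both genes were therefore detected in all groups but silenced TOV-21G.

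IMPA2, an inositol monophosphatase, was at 12.84 and 13.10 in silenced TOV-21G, against 14.63 and 14.54 in silenced SK-OV-3, a difference of -1.62 (limma adjusted p = 0.00074) beside 0.35 between controls. TRIM6, another TRIM family protein, differed by -0.59 between silenced lines, which was not called, and by 1.89 between control lines (limma adjusted p = 0.000737). CDH1, which encodes E-cadherin, was below detection in both silenced lines, so no fold between them is given. In control cells CDH1 was at 7.57 and 7.99 in TOV-21G, against 4.98 and 5.04 in SK-OV-3, at least 2.14-fold higher. C6orf58 was also below detection in both silenced lines, and in control cells it was at 7.96 and 8.19 in TOV-21G and undetected in SK-OV-3. Both CDH1 and C6orf58 were therefore detected in control TOV-21G alone, and the gap between the silenced lines was not measured for either. For none of TRIM6, CDH1 and C6orf58 did the change of the line difference pass (limma adjusted p = 0.165).

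For other genes the values lay further toward TOV-21G after silencing. KDM5C, a histone H3 lysine demethylase, was at 7.53 and 7.95 in silenced TOV-21G, against 5.45 and 6.03 in silenced SK-OV-3, where it was undetected, and was at least 2.15-fold higher (limma adjusted p = 0.00141). Between control lines KDM5C was at 6.20 and 6.58 in TOV-21G, against 7.28 and 6.82 in SK-OV-3, a difference of -0.66. The lowest signals detected on these arrays were 6.57 and 6.41 in TOV-21G, against 6.64 and 6.73 in SK-OV-3. The value of 6.20 was therefore below detection, and the control difference rests on values near the floor. The change did not pass (limma adjusted p = 0.165), and its size is not given because silenced SK-OV-3 was below detection. CHPF, a chondroitin polymerizing factor, was at 11.06 and 11.42 in silenced TOV-21G, against 9.29 and 8.91 in silenced SK-OV-3, a difference of 2.14 (limma adjusted p = 0.000276) beside 0.34 between controls.

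DHRS12, a short-chain dehydrogenase, was detected in silenced TOV-21G alone, at 7.51 and 8.21, and was at least 2.34-fold higher than in silenced SK-OV-3 at 5.37 and 5.60. A further DHRS12 probe gave 1.90 between silenced lines and 0.95 between control lines. ATP6AP1L was likewise detected in silenced TOV-21G alone, at 7.33 and 7.40, against 5.33 and 5.92 in silenced SK-OV-3, at least 1.66-fold higher. CGB5, a chorionic gonadotropin beta gene, was at 8.07 and 8.55 in silenced TOV-21G, against 12.62 and 12.53 in silenced SK-OV-3. Its line difference was -4.26 after silencing and -6.04 between control lines. CGB5 has near-identical copies in its cluster, so its probe may read several of them.

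**Figure D4:**
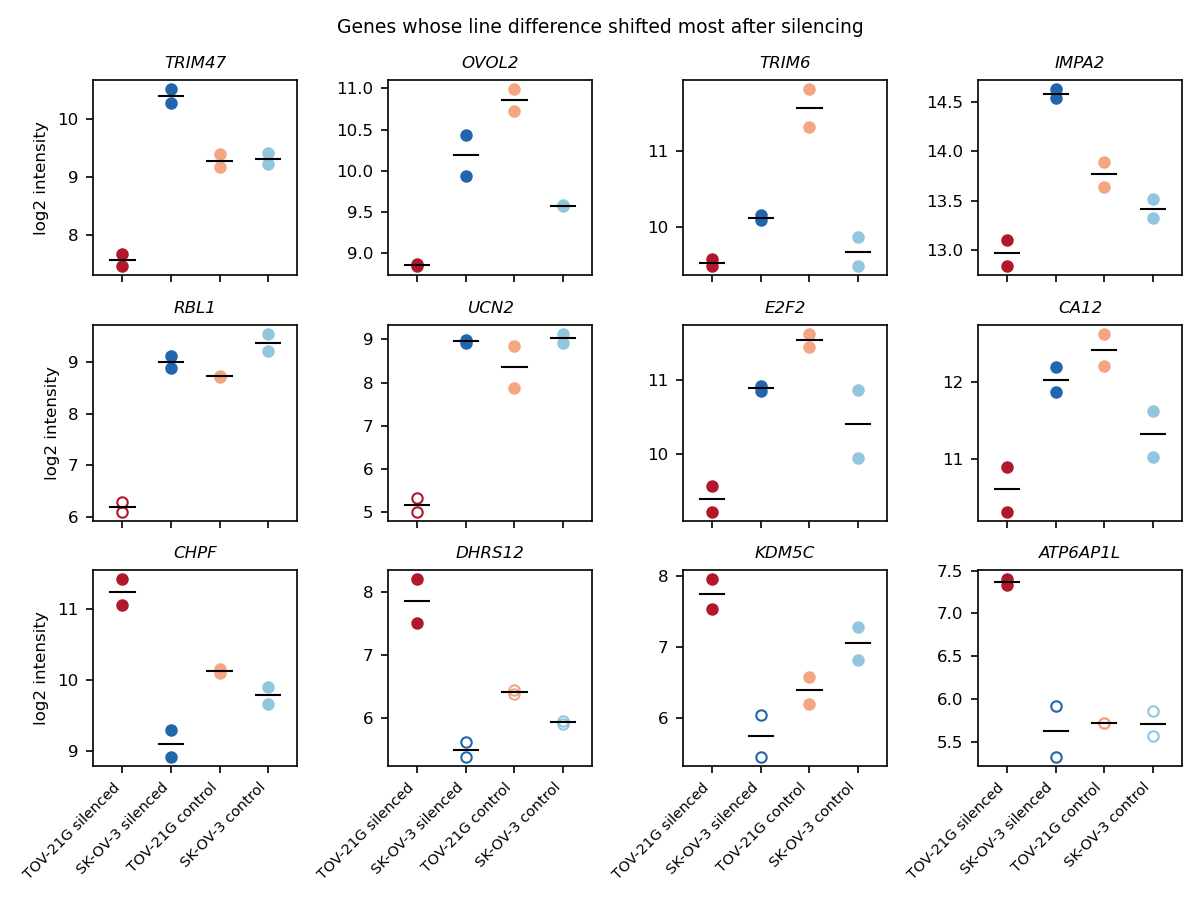
Log2 intensity on each array, 1 point per array with the group mean as a bar, for 12 genes. They are a selection from the genes with the smallest p for the change of the line difference and those called with opposite signs in both comparisons. Open points mark a group undetected on both arrays. In TRIM47 and IMPA2 the silenced lines lie on opposite sides of the control arrays, and in CHPF they do so in the reverse order.

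HOX genes divided the silenced lines by cluster. Of 14 tested, 5 were called higher and 6 lower in silenced TOV-21G (78.6%, beside 39.8% of all genes). The control counts were also 5 and 6, beside 33.8% of all genes. All 6 of the lower genes were of the HOXB cluster, with HOXB2, HOXB4 and HOXB5 undetected in silenced TOV-21G. HOXB5 was at 5.53 and 5.42 in silenced TOV-21G, against 11.97 and 11.75 in silenced SK-OV-3, at least 41.2-fold lower, and HOXB4 was at least 12.6-fold lower. The higher genes, of which HOXC9 and HOXC10 are named after their values were seen, were HOXC6, HOXC8, HOXC9 and HOXC10 of the HOXC cluster and HOXD11. HOXC8 was at 11.12 and 11.04 in silenced TOV-21G, against 6.07 and 6.35 in silenced SK-OV-3, at least 21.8-fold higher. HOX factors record the position along the body axis at which a cell arose, and their genes lie in clusters that are switched on in order.

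Lineage factors and antigens of ovarian carcinoma split as well. SOX17, a factor of Müllerian and endodermal lineages, was undetected in silenced TOV-21G at 4.69 and 4.70, against 10.995 and 11.16 in silenced SK-OV-3, at least 23.9-fold lower. MECOM, a zinc finger oncogene, was at 10.99 and 11.22 in silenced TOV-21G, against 14.79 and 14.77 in silenced SK-OV-3, a difference of -3.68 (limma adjusted p = 2.06e-05). ESR1, the estrogen receptor alpha, was undetected in silenced TOV-21G, against 8.46 and 8.81 in silenced SK-OV-3, at least 4.39-fold lower. Between control lines ESR1 was at least 1.57-fold lower in TOV-21G. Of 8 tested genes in this list 2 were called higher and 4 lower (75%, beside 39.8% of all genes), as between control lines. The median was -1.99 after silencing beside -0.89 between controls.

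Keratins were mostly lower in silenced TOV-21G. Of 10 tested, 8 were called lower and 1 higher (90%, beside 39.8% of all genes). Between control lines 6 were called lower and 0 higher (60%, beside 33.8% of all genes). The 1 higher call was lost when any 1 of 5 arrays was left out. KRT19 was at 6.83 and 5.48 in silenced TOV-21G, against 12.84 and 11.72 in silenced SK-OV-3, a difference of -6.12 (SE 0.57, limma adjusted p = 0.000107), and it was detected on 1 of the 2 silenced TOV-21G arrays. KRT7 was at 9.69 and 9.53 in silenced TOV-21G, against 12.996 and 12.63 in silenced SK-OV-3, a difference of -3.20. KRT14 was undetected in silenced TOV-21G and at least 22.4-fold lower. KRT5, a basal keratin, was undetected in silenced TOV-21G, against 9.25 and 9.96 in silenced SK-OV-3, at least 8.6-fold lower. In control SK-OV-3 the level of KRT5 was 6.81 and 7.54, against no detection in control TOV-21G, at least 1.61-fold lower in TOV-21G, and the change of its line difference did not pass (limma adjusted p = 0.172).

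Among regulators of the epithelial state, SNAI2, a repressor that drives the mesenchymal transition, was at 5.31 and 5.07 in silenced TOV-21G and undetected, against 10.70 and 11.42 in silenced SK-OV-3, at least 23.6-fold lower. The kidney cadherin CDH16 was at least 38.5-fold lower. The membrane serine protease ST14 and its inhibitor SPINT1 ran the other way, at least 5.12-fold and 4.94-fold higher in silenced TOV-21G. ELF3, an epithelial ETS factor, was detected in both silenced lines, at 9.08 and 10.34 in TOV-21G against 9.41 and 7.77 in SK-OV-3, and these groups overlapped. In control cells ELF3 was at 9.96 and 9.95 in TOV-21G and undetected in SK-OV-3, at least 9.65-fold higher. The change of its line difference did not pass (limma adjusted p = 0.208). Of 20 epithelial junction genes 7 were called higher and 5 lower in silenced TOV-21G (60%, beside 39.8% of all genes). Between control lines 10 were called higher and 5 lower. Fewer were called lower after silencing when experiment 2 of silenced TOV-21G or either silenced SK-OV-3 array was left out.

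Cytokines were far apart between the silenced lines, with IL6 and TNF among them. Of 17 tested, 7 were called higher and 3 lower in silenced TOV-21G (58.8%, beside 39.8% of all genes). Between control lines 9 were called higher and 3 lower (70.6%, beside 33.8% of all genes). The median was 0.50 after silencing and 1.42 between controls. IL6 was at 12.89 and 13.22 in silenced TOV-21G, against 6.10 and 7.82 in silenced SK-OV-3, a difference of 6.09 (SE 0.48, limma adjusted p = 4.7e-05). On the control arrays IL6 was at 14.72 and 14.77 in TOV-21G, against 6.52 and 6.43 in SK-OV-3, where it was undetected, at least 267-fold higher. The silenced SK-OV-3 arrays included 1 with detection, and the change for IL6 did not pass (limma adjusted p = 0.336). TNF was at 9.47 and 9.54 in silenced TOV-21G, against 5.28 and 5.04 in silenced SK-OV-3, at least 7.31-fold higher, and between control lines it was at least 40.2-fold higher. The change for TNF, which is set against a signal below detection in SK-OV-3, did not pass here (limma adjusted p = 0.227) and passed without background correction and with the authors' own normalization (limma adjusted p = 0.048 and 0.0152). IL32 had 11.64 and 11.86 in silenced TOV-21G and was undetected in silenced SK-OV-3, at least 34.7-fold higher.

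Receptor and ERK pathway genes also separated the lines. Of 7 EGFR family receptors and ligands 4 were called higher and 2 lower in silenced TOV-21G (85.7%, beside 39.8% of all genes). The control counts were also 4 and 2. The ligand EREG led them, at 10.31 and 9.65 in silenced TOV-21G and undetected in silenced SK-OV-3, at least 10.2-fold higher. The ligand BTC was at least 5.77-fold lower. Of 12 ERK output genes, which are switched on by MAP kinase signalling and include its own inhibitors, 7 were called higher and 1 lower (66.7%). Between control lines 4 were called higher and 0 lower (33.3%, beside 33.8% of all genes). The 1 lower call was lost without experiment 1 of silenced TOV-21G or either silenced SK-OV-3 array. SPRY4, an inhibitor of receptor signalling, was at 11.34 and 11.48 in silenced TOV-21G, against 7.56 and 8.62 in silenced SK-OV-3. The difference was 3.32 beside 1.62 between controls, and the change did not pass. The count of ERK genes called higher was 4 without experiment 1 of silenced SK-OV-3.

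Matrix genes ran both ways, with 13 called higher and 12 lower of 35 tested (71.4%, beside 39.8% of all genes). Between control lines 7 were called higher and 10 lower. The higher count after silencing fell when either silenced SK-OV-3 array was left out. COL5A1, a fibrillar collagen chain, was undetected in silenced TOV-21G, against 11.32 and 11.20 in silenced SK-OV-3, at least 27.1-fold lower. ITGB4, the hemidesmosome integrin, was at 9.20 and 8.94 in silenced TOV-21G, against 12.62 and 12.78 in silenced SK-OV-3. The difference was -3.63 (limma adjusted p = 3.8e-05) beside -1.55 between controls. The change for ITGB4 did not pass here and passed with the authors' own normalization (limma adjusted p = 0.0487). Of 23 interferon-stimulated genes 8 were called higher and 7 lower (65.2%), beside 8 higher and 5 lower between control lines. Fewer were called higher after silencing without experiment 1 of silenced SK-OV-3. OAS1, an antiviral RNA sensor enzyme, was at 9.61 and 9.08 in silenced TOV-21G and undetected in silenced SK-OV-3, at least 6.57-fold higher, and IRF1, an interferon-induced factor, was at 8.32 and 8.003 in silenced TOV-21G, against 9.21 and 9.05 in silenced SK-OV-3. IRF1 differed by -0.97 (limma adjusted p = 0.00958) after silencing and by 0.59 between control lines, where it was not called. The change for IRF1 did not pass.

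Metabolic genes with large gaps were scattered over pathways. MT1E, a metallothionein of a family with similar sequences, was at 11.96 and 12.12 in silenced TOV-21G and undetected in silenced SK-OV-3, at least 42.5-fold higher. ABCA1, a cholesterol exporter, was at least 19.9-fold lower. Of 8 cholesterol efflux and apolipoprotein genes 3 were called higher and 1 lower (50%), as between control lines. SLC7A11, the cystine transporter, differed by -4.42 (limma adjusted p = 5.93e-05) beside -2.63 between controls, with detection on 1 of the 2 silenced TOV-21G arrays. The change for SLC7A11 did not pass. Of 28 NRF2 and glutathione genes, its list, 9 were called higher and 6 lower (53.6%). PFKM, the muscle phosphofructokinase, was at 11.26 and 11.44 in silenced TOV-21G, against 7.12 and 7.63 in silenced SK-OV-3, a difference of 3.98 (limma adjusted p = 1.49e-05). Outside metabolism, 2 of 11 SWI/SNF subunits were called higher and 5 lower in silenced TOV-21G (63.6%, beside 39.8% of all genes). Between control lines 2 were called higher and 3 lower, and the median was -0.66 after silencing beside -0.52 between controls. Fewer were called lower after silencing when experiment 2 of silenced TOV-21G or either silenced SK-OV-3 array was left out. SMARCC1, a core subunit, ran against most of the list. It was undetected in silenced SK-OV-3 and at least 6.18-fold higher in silenced TOV-21G.

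Ribosomal protein and respiratory chain genes were called less often than the 39.8% of all genes. Of 61 cytoplasmic ribosomal protein genes 3 were called higher and 3 lower (9.84%), with a median difference of 0.09. When each array was left out these counts were 1 to 5 higher and 0 to 2 lower, with the fewest without experiment 1 of silenced SK-OV-3, and in the other settings up to 8 were higher. Of 40 respiratory chain and ATP synthase genes 3 were called higher and 0 lower (7.5%), and the median was 0.14, although UQCRH among them had the highest difference of all genes called higher. Of 25 proteasome subunits 0 were called higher and 5 lower (20%), with a median of -0.33 beside -0.43 between controls. The lower count was 0 without experiment 2 of silenced SK-OV-3, 1 without experiment 2 of silenced TOV-21G and 2 without experiment 1 of either silenced line. Of 24 nuclear transport receptors and Ran genes 1 was called higher and 4 lower, with a median of -0.47 beside -0.46 between controls, and 2 were lower without experiment 1 of silenced SK-OV-3. IPO8 was at 10.46 and 10.50 in silenced TOV-21G, against 12.40 and 12.37 in silenced SK-OV-3, a difference of -1.90 (limma adjusted p = 0.000355) beside -1.76 between controls.

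**Figure D5:**
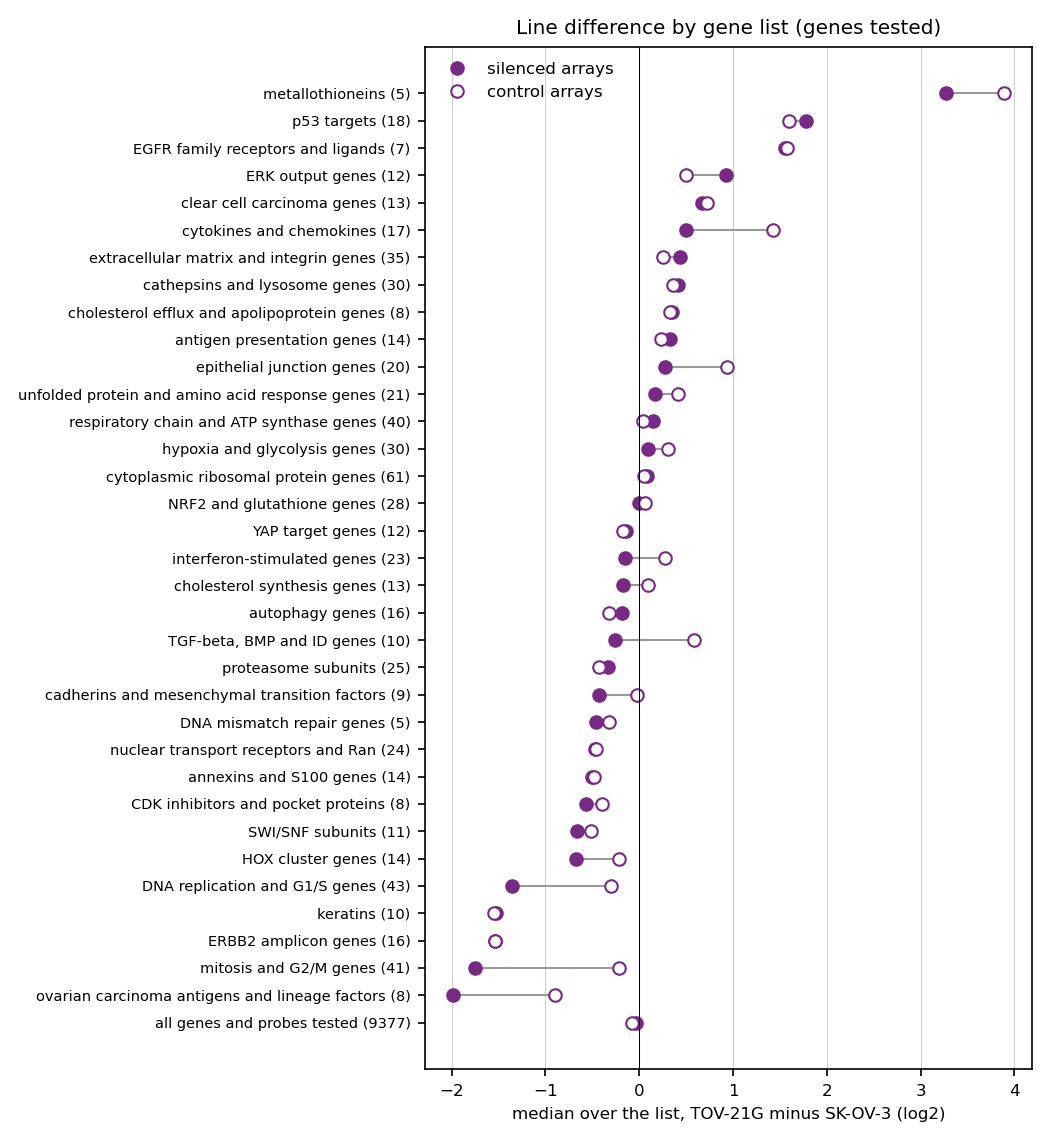
Median TOV-21G minus SK-OV-3 log2 difference of each gene list with at least 5 tested members, on silenced arrays (filled) and on control arrays (open), with the number of tested genes in brackets. The mitosis list has the longest line, from -1.75 on silenced arrays to -0.21 on control arrays, and the ERBB2 amplicon points coincide at -1.54.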

How the data were processed

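Per the file headers, the authors deposited non-normalized bead signal intensity for each probe and array, with a detection p-value beside it. The authors also deposited normalized intensity values, and how they were normalized is not given in the sources used here. BeadStudio 2 is the software that the submitters' processing notes name. Intensities were background corrected with normexp (limma 3.58.1 in R 4.3.3, offset 16), with the negative controls' mean and variance inferred from the detection p-values, then quantile normalized between arrays, and log2 was taken. Probes with a detection p under 0.01 on at least 2 of the 8 arrays were kept, with the probe of highest mean for each gene, which left 8373 named genes and 1004 unnamed probes. Gene symbols came from the platform annotation: 21838 probes had 1 symbol and 2693 had none.

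All 8 arrays entered a limma fit of 4 group means, which had 4 residual degrees of freedom and 3.87 from the prior. Adjusted p-values are limma's, by the Benjamini-Hochberg method over all 9377 tested, and SE stands for a log2 difference's standard error. Where a group was undetected on both arrays, a fold is a bound, taken against the higher of the probe's own signal and the lowest signal detected there. The labels give only experiment numbers for replicates, so p-values measure the spread between these arrays, which may be technical. With 2 arrays in each group the number of arrays limits the precision.

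The members, the 42 gene lists and the rules were chosen with earlier results of these data known. Genes named were CSE1L and RASSF1, the 10 highest and 10 lowest called without overlap between silenced lines, 8 in each direction by the p of the change, up to 4 called with opposite signs in both comparisons, and in each list up to 4 by the silenced p and up to 2 by the p of the change. The text gives a selection of them. The pipeline was tested on simulated data. Alternatives were a replicate block, single arrays left out, scaling to the median, omission of background correction, an offset of 50, the authors' values, other detection filters, all probes, a threshold of 0.01, a trended and robust spread and only the 4 arrays of a contrast. The plots were made in matplotlib 3.10.9 under Python 3.11.15.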

Additional observations from a re-analysis of the deposited data

How the results depend on the processing

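The silenced line difference called 3732 genes and the control line difference 3166. With detection required on all 8 arrays, which removes genes absent from 1 line, these were 2449 and 1996 of 6726 tested, and at a threshold of 0.01 they were 2294 and 1874. For the change of the line difference, called for 0 genes here, no background correction gave 5 (all toward SK-OV-3), the authors' values 10 (9 toward SK-OV-3), detection on all 8 arrays 1 and a trended and robust spread 11 (all toward SK-OV-3). The cause of those calls was not tested. TRIM47 was called in all 4 of these settings, and OVOL2, TRIM6 and IMPA2 in all but the detection filter. Leaving out each array gave 2538 to 3608 genes for the silenced difference, 2141 to 3247 for the control difference and 0 for the change, with 711 to 1049 at an unadjusted p under 0.05. Over the same fits the RASSF1 differences changed sign, with the silenced difference from -0.12 to 0.51 and the change from -0.62 to 0.0031.

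Deviations of same-numbered arrays correlated at -0.183 between the silenced lines, -0.137 between the control lines, 0.561 between silenced and control TOV-21G and 0.126 between silenced and control SK-OV-3. Across the lines the experiment numbers were therefore not taken to pair the arrays. With the replicate block 3610 genes were called for the silenced line difference (3510 of them shared with the fit without it), 3059 for the control line difference and 0 for the change of the line difference, and CSE1L passed between silenced lines (limma adjusted p = 0.0476). A replicate block within each line, which bears on the change alone, also called 0, with 1476 genes at an unadjusted p under 0.05 in place of 948. Crossed pairing, added after the data were seen, gave 4218, 3652 and 0. Of 157 named genes called between silenced lines 135 were called with the same sign in every setting and 0 reversed. No slide is named in the sources used here, so a block on slide was not run. Genes undetected in 1 line have no measured fold, and their bounds depend on the background correction.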
